A study of Mus musculus with 6 samples.

Results

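Of the 8 Grainyhead, ETS and KLF transcription factors described here, Grhl3 was 7.85-fold lower in AC9 than in VECTOR cells, and the 4 others that were measurable on every array differed by a log2 value of 0.12 or less. The remaining 3, Grhl2, Elf5 and Ehf, read at background on most or all arrays. The set comprised the Grainyhead factors Grhl1, Grhl2 and Grhl3, the ETS factors Elf3, Elf5 and Ehf, and the Krüppel-like factors Klf4 and Klf5. It was chosen by gene symbol around the low AC9 level of Grhl3, so the difference between AC9 and VECTOR is given for its members as a description, with no test. The 8 were found among 19505 named genes, each by 1 probe set, and 0 of the 8 had a second probe set to choose from.

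RNA came from 393P cells, which some labels write as 9393P, an epithelial line derived from a mouse lung adenocarcinoma. Cells of 1 group were stably transfected with AC9 for overexpression and those of the other with the empty VECTOR, with 3 samples in each group and 1 Affymetrix Clariom S array per sample. Per the labels' protocols, culture was in RPMI with serum, transfection used the jetPRIME reagent, and stable transfectants were kept under puromycin or G418. The sources used here do not give which drug each group received, how many clones it holds or whether its samples came from separate cultures. Drug and clone effects cannot be told apart from that of AC9, and the p-values below rest on a spread between samples that may be technical.

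Grainyhead proteins bind DNA through a domain related to that of the CP2 factors and switch on genes that seal epithelia, among them those for cell junctions and for the outer barrier of skin. Grhl3, also called Get1, is needed in the mouse for the skin barrier, wound closure and closure of the neural tube. Elf3, Elf5 and Ehf form a branch of the ETS family found mainly in epithelia, and Klf4 and Klf5 are zinc finger factors often described as opposed, with Klf4 in differentiating and Klf5 in dividing epithelial cells. In human and mouse cells, ZEB1, a repressor of epithelial genes, and GRHL2 are known to repress each other.

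Values are log2 intensities after RMA, and 1 unit is a doubling of signal. A probe set was held to be measurable on an array when it read above the 90th percentile of that array's 5222 negative control probe sets, a bound of 5.997 to 6.112. Per array, 53.6% to 55.3% of genes lay above it, and correlations across genes were 0.994 to 0.996 within a group and 0.985 to 0.988 between groups. Adcy9, the adenylyl cyclase for which AC9 is a listed synonym, read 6.78, 6.60 and 6.82 on the AC9 arrays, against 6.12, 6.09 and 6.15 on the VECTOR arrays, a log2 difference of 0.61 (SE 0.10, limma adjusted p 0.00264). Its VECTOR readings lay just above the bound of their arrays, and readings this close to background can understate a fold. Of 8 epithelial markers, 7 lay above the bound on every array, while the same held for 1 of 7 leukocyte, 1 of 6 endothelial and 1 of 7 fibroblast markers. The mean level of the epithelial markers was 10.31 to 10.37 in AC9 and 10.23 to 10.28 in VECTOR. This mean combines changes in both directions, since 3 of the 8 were higher and 1 lower at a limma adjusted p under 0.05.

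Grhl3 (probe set TC0400003769.mm.2, chromosome 4) read 6.61, 6.59 and 6.29 on the AC9 arrays, against 9.29, 9.64 and 9.47 on the VECTOR arrays. The 3 AC9 arrays were low and the 3 VECTOR arrays high, with a gap of 2.68 between the highest AC9 and the lowest VECTOR reading. The means were 6.50 ± 0.18 in AC9 and 9.47 ± 0.18 in VECTOR (SD, n = 3 each), a log2 difference of -2.97 (SE 0.13), the value around which the set was chosen. Grhl3 ranked 2 of 19505 genes from the largest fall upward. Its lowest AC9 reading lay 0.18 above the highest bound from the negative controls, so the transcript stayed measurable in AC9 cells, but a reading this close to background can understate a fold. With each array left out in turn the difference lay between -3.06 and -2.87. Of 23 background probe sets, 19 also read lower in AC9 without overlap, by at most 0.498.

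**Figure D1:**
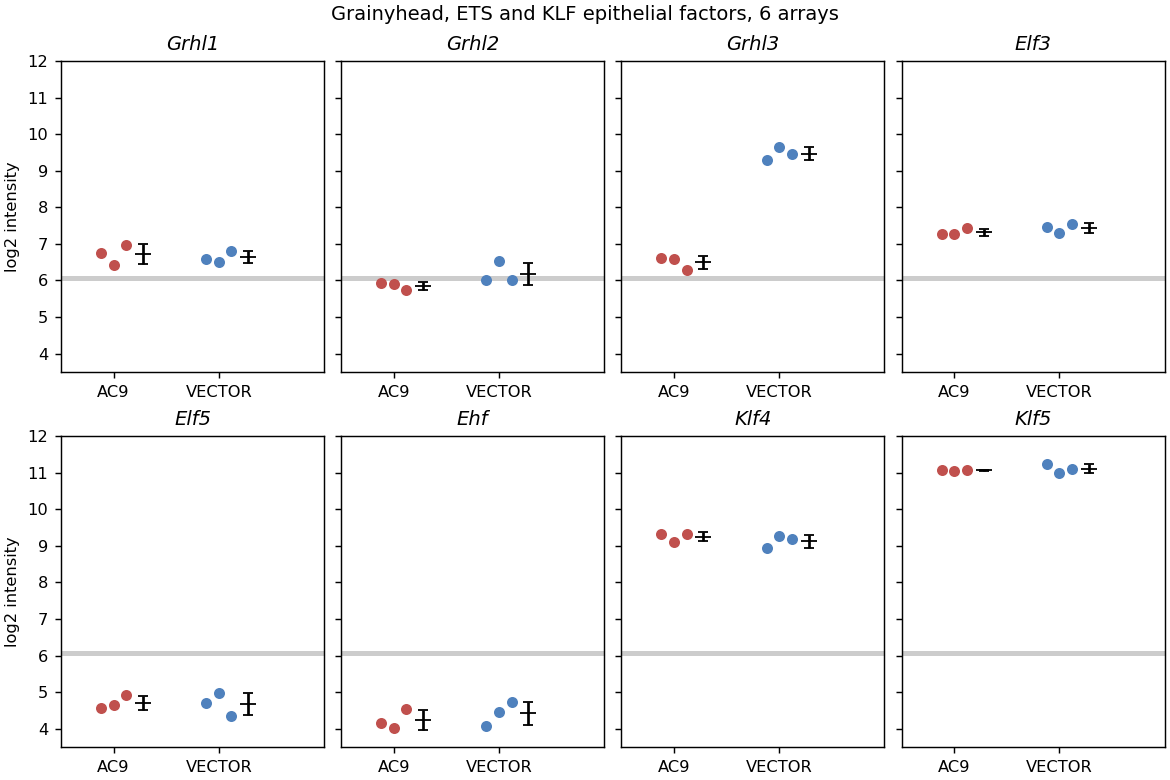
Log2 intensity of each of the 8 factors on the 3 AC9 (red) and 3 VECTOR (blue) arrays; points are arrays, black marks the mean with its SD, and the grey band is the negative control bound of 5.997 to 6.112. Grhl3 stands between 6.29 and 6.61 in AC9 and between 9.29 and 9.64 in VECTOR, while Elf5 and Ehf lie under the band on all 6 arrays.

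The sequences before the start sites of Grhl3, Elf3 and Klf4 are shown because these 3 members were measurable on every array and have a single entry each in the RefSeq promoter table (build GRCm38.p6). They are the 250 bases before the annotated start, 5′ to 3′ on the gene's own strand, which is the minus strand for all 3. Grhl3 lies at chr4:135573633-135573882, Elf3 at chr1:135258473-135258722 and Klf4 at chr4:55532476-55532725. Capitals mark every match, on either strand, to the motifs AACNGGTT (Grainyhead), CCGGAA (ETS), CCACCC (KLF), TGACGTCA (the cAMP response element, CRE), TGACG (its half-site, which the full CRE contains) and CAGGTG (the E-box bound by ZEB factors).
Grhl3: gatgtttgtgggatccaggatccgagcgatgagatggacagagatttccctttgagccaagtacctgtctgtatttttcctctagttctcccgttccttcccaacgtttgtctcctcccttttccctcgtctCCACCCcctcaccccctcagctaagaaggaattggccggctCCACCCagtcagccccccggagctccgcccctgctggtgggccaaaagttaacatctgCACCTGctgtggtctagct
Elf3: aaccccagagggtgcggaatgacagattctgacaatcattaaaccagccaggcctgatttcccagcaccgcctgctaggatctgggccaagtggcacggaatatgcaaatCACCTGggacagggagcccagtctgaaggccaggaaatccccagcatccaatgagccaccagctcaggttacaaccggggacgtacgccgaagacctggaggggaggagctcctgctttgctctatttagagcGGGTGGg
Klf4: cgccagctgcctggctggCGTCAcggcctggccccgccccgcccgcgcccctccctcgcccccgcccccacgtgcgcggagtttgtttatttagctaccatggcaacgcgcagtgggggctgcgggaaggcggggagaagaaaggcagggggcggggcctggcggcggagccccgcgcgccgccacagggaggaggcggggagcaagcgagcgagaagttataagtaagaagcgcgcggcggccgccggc

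Of the 8 members, 5 had promoter entries, 7 entries in all, since Grhl1 and Elf5 had 2 each. The Grhl3 stretch held the KLF motif at 118 to 113 and 77 to 72 bases before the start, and the ZEB E-box, as its reverse CACCTG, at 19 to 14 bases. Elf3, whose level differed little between the groups, also held both kinds, the E-box at 140 to 135 bases and the KLF motif at 7 to 2 bases. Klf4 held only the CRE half-site, at 232 to 228 bases, and the E-box was found 3 times in the first Elf5 entry. Among 32851 promoter entries of the table, 28.1% held the KLF motif, 17.2% the E-box and 17.8% the CRE half-site. The full CRE (1.55% of entries), the Grainyhead motif (1.79%) and the ETS motif (12.03%) were in 0 of the 7 member entries. A match says only that these letters occur in the window.

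**Figure D2:**
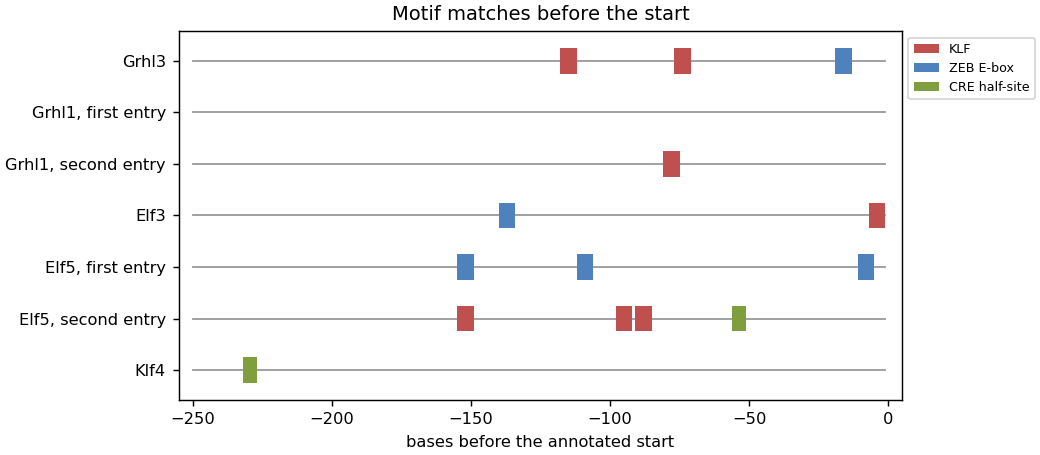
Positions of the matched motifs in the 250 bases before the annotated start of the 7 promoter entries of 5 members; bars are matches, coloured by motif, and the x axis counts bases before the start. Grhl3 and Elf3 each carry a KLF motif and an E-box, and the first Grhl1 entry carries none of the 3 motifs drawn.

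Of the other Grainyhead genes, Grhl1 was measurable on all 6 arrays and Grhl2 on 1. Grhl2 (probe set TC1500000278.mm.2), the family member best known for switching on E-cadherin and claudin genes and for shaping lung airway epithelium, read 5.92, 5.91 and 5.73 in AC9, against 6.01, 6.53 and 6.02 in VECTOR. The AC9 arrays were lower without overlap, by a gap of 0.09, and the difference of the mean readings was -0.33 (SE 0.15), or -0.16 without VECTOR replicate 2. All 3 AC9 readings and 2 of the 3 VECTOR readings were under their array's negative control bound, so only VECTOR replicate 2 measured Grhl2, and these readings set no upper limit on its change. Grhl1 (probe set TC1200000200.mm.2), which acts in desmosome formation in mouse skin, read 6.75, 6.43 and 6.96 in AC9, against 6.60, 6.51 and 6.81 in VECTOR. Its groups overlapped, with means of 6.72 ± 0.27 in AC9 and 6.64 ± 0.16 in VECTOR (SD, n = 3 each) and a difference of 0.08 (SE 0.14).

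Of the epithelial ETS factors, Elf3 alone was measurable. Elf3 (probe set TC0100003123.mm.2), induced in many epithelia by inflammation, read 7.27, 7.27 and 7.43 in AC9, against 7.46, 7.29 and 7.55 in VECTOR. The groups overlapped, and the difference was -0.11 (SE 0.10). Elf5 (probe set TC0200001532.mm.2), the factor that drives milk secretion in the mouse mammary gland, read 4.56, 4.66 and 4.92 in AC9, against 4.71, 4.97 and 4.36 in VECTOR. Ehf (probe set TC0200004224.mm.2), expressed in ductal and airway epithelia, read 4.15, 4.02 and 4.54 in AC9, against 4.09, 4.45 and 4.72 in VECTOR. Both lay under the bound on all 6 arrays, so their readings are background and no fold is given for either.

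The Krüppel-like members were measurable on every array and overlapped between the groups. Klf4 (probe set TC0400002694.mm.2), which like Grhl3 is needed for the mouse skin barrier, read 9.32, 9.10 and 9.33 in AC9, against 8.93, 9.27 and 9.18 in VECTOR, a difference of 0.12 (SE 0.12). Klf5 (probe set TC1400001157.mm.2), needed in the mouse for maturation of the lung, read 11.06, 11.04 and 11.08 in AC9, against 11.24, 10.98 and 11.11 in VECTOR, a difference of -0.05 (SE 0.10). For the 4 members other than Grhl3 that were measurable on every array, the 95% intervals of the difference reached no further than -0.35 and 0.40. These intervals allow a change of modest size in either direction and do not show that the levels were equal.

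The groups did not overlap for 2 of the 8 members, Grhl2 and Grhl3, against 35.1% of all genes. Over the readings of all 8, those at background included, the median difference was -0.08, or -0.05 without Grhl3, beside 0.02 for all genes. Since the set was built around this contrast, nothing is read from these values. The residual SD of a member over the 6 arrays ran from 0.09 for Klf5 to 0.30 for Ehf, beside a median of 0.14 for all genes.

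**Figure D3:**
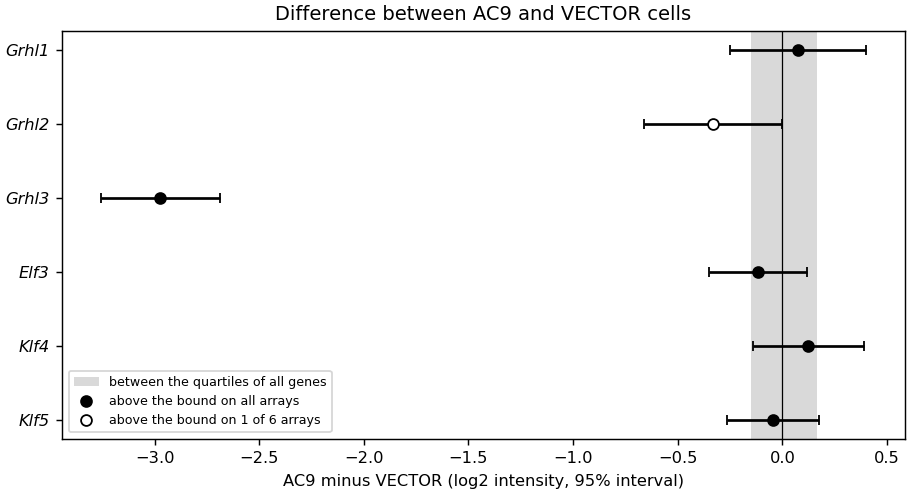
Difference AC9 minus VECTOR in log2 intensity of the 6 factors that read above the negative control bound on at least 1 array, with 95% intervals from the fit across all genes; the open circle marks Grhl2, above the bound on 1 of 6 arrays, and the grey band spans the lower to the upper quartile of all genes (-0.15 to 0.17). Grhl3 lies at -2.97, apart from the other 5, which lie between -0.33 and 0.12. The intervals are no tests: the set was chosen on the value of Grhl3, and the Grhl2 readings are mostly background and set no limit on its change.

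The genes whose pattern over the 6 arrays was closest to that of Grhl3 were found by Euclidean distance, after subtracting each gene's own mean, among 18454 genes that were not members, predicted or unnamed. The closest 5, in order, were Mgst1, Rasl11a, Sptssb, Atoh8 and Elfn1, at distances of 0.34 to 0.65, whereas the other 7 members lay at 3.24 to 3.81 and the median gene at 3.69. Mgst1, a microsomal glutathione transferase, read 6.77, 6.84 and 6.21 in AC9, against 9.43, 9.50 and 9.60 in VECTOR. Sptssb, a small subunit of serine palmitoyltransferase, read 6.79, 6.63 and 6.17 in AC9, against 9.67, 9.37 and 9.40 in VECTOR. In Grhl3, Mgst1, Sptssb and the Ras-like GTPase Rasl11a, AC9 replicate 3 gave the lowest of the 6 readings. Atoh8, a helix-loop-helix transcription factor, and Elfn1, a neuronal membrane protein, instead read highest of the AC9 arrays on replicate 3, and Elfn1 was under the bound on all AC9 arrays. This ordering was selected on the same contrast as Grhl3 and is a description only.

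**Figure D4:**
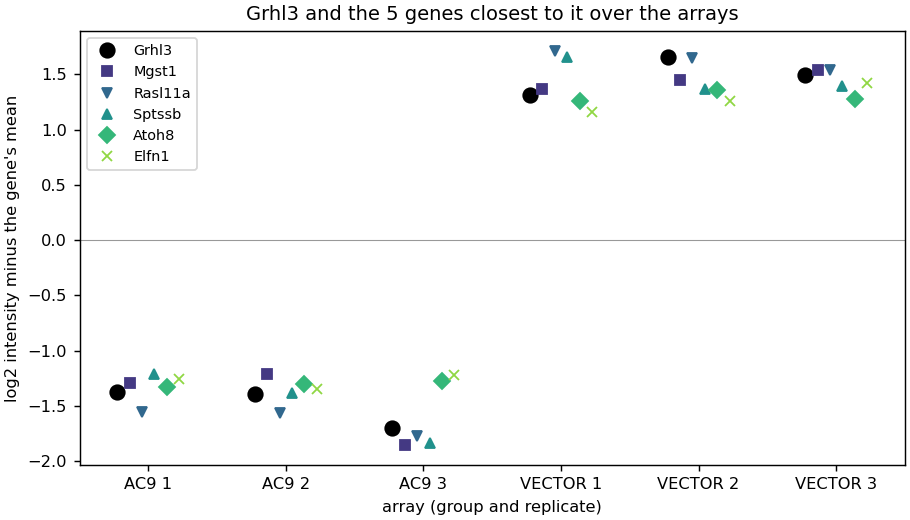
Log2 intensity minus each gene's own mean, on the 3 AC9 and 3 VECTOR arrays, for Grhl3 (black circles) and the 5 genes closest to it. All 6 genes lie below their mean on the AC9 arrays and above it on the VECTOR arrays; AC9 replicate 3 is the lowest array for Grhl3, Mgst1, Rasl11a and Sptssb.

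Genes outside the set were called at an adjusted p of 0.05 in the limma fit across all genes, which 17.6% of all genes passed, 8.26% higher and 9.29% lower in AC9. Of 48 other measured factors of the CP2, ETS and KLF or SP families, 3 rose and 3 fell (12.5%), a share near that of all genes, with differences from -1.33 to 0.85 and a median of 0.01. Within the CP2 superfamily, to which Grainyhead proteins belong, Tfcp2, a broadly expressed factor, fell (9.23 ± 0.07 in AC9 and 9.58 ± 0.12 in VECTOR, SD, n = 3 each, limma adjusted p 0.0439), and Tfcp2l1 and Ubp1 were not called. That call was lost with each array centred on its median (adjusted p 0.0527) and without any 1 of AC9 replicates 1, 2 and 3 or VECTOR replicates 2 and 3 (0.0679 to 0.134).

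Among 22 other ETS factors, 1 rose and 2 fell (13.6%, beside 17.6% of all genes), with a median of -0.03. Etv1, a PEA3 factor downstream of ERK, was at least 1.60-fold lower, at 5.55, 5.27 and 5.50 in AC9, all under the bound, and 6.89, 6.77 and 6.66 in VECTOR (adjusted p 7.67e-05). Such a lower limit sets, on each array of the dimmer group, the reading at the negative control bound or its own value, whichever is higher, and takes the brighter group as read. The repressor Erf fell by 0.36 (adjusted p 0.0401) and Elf4 rose by 0.41 (adjusted p 0.0458). Elf4 lost its call without AC9 replicate 1 or 3 or any VECTOR replicate (0.0614 to 0.150), and Erf without any AC9 replicate or VECTOR replicate 1 or 2 (0.0757 to 0.124) and with each array centred on its median (0.0543).

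Among 23 other KLF and SP factors, 2 rose and 0 fell by limma, a called share of 8.70% beside 17.6% of all genes. At an unadjusted p under 0.05 by limma, 4 were higher and 1 lower. The median was 0.12, beside 0.02 for all genes. Klf9, a glucocorticoid-induced factor, read 10.79, 10.83 and 10.74 in AC9, against 9.88, 9.87 and 10.05 in VECTOR, a rise of 0.85 or 1.80-fold (SE 0.09, adjusted p 0.000413). All 3 AC9 arrays were higher than all 3 VECTOR arrays. Klf12 was called (adjusted p 0.0487) but lay under the bound on all 6 arrays and lost its call when any 1 of 5 arrays was left out (AC9 replicates 1, 2 and 3, VECTOR replicates 1 and 2, adjusted p 0.0668 to 0.149) and with repeated quantile normalization (0.0621).

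Of 26 measured genes reported as Grainyhead targets in mouse or human cells, 2 rose, 2 fell and 22 were not called. The called share of 15.4% was near the 17.6% of all genes, with a median of -0.11 beside 0.02 for all genes. At an unadjusted p under 0.05 by limma, 4 were higher and 8 lower. Only 13 of the 26 lay above the bound on all arrays, and 5 lay under it on all arrays. Spint1 and Spint2, membrane inhibitors of epithelial serine proteases, fell by 0.71 (SE 0.14, adjusted p 0.00872) and by 0.43 (SE 0.10, adjusted p 0.0145). Spint1 read 7.17, 7.44 and 7.30 in AC9, against 7.94, 8.31 and 7.77 in VECTOR, so its groups did not overlap. The tight junction claudin Cldn4 rose by 0.50 (SE 0.12, adjusted p 0.0189) and the adhesion protein Epcam by 0.44 (SE 0.12, adjusted p 0.0293). Cdh1, the gene of E-cadherin and the target most often named for Grhl2, was not called, at 12.61 in AC9 and 12.84 in VECTOR (difference -0.23, SE 0.09, adjusted p 0.115). Its AC9 readings were lower without overlap, and 35.1% of all genes did not overlap. Tgm1, a barrier crosslinking enzyme, and Arhgef19, a RhoA activator, are targets named for Grhl3 in mouse, and differed by 0.14 (SE 0.18) and 0.09 (SE 0.13). Tgm1 was above the bound on 1 of the 6 arrays, and these last 3 genes were picked after their values were seen.

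The number of called targets depended on single arrays. It was 1 without AC9 replicate 1 and 2 without VECTOR replicate 1. Cldn4 lost its call without AC9 replicate 1 or 3 or VECTOR replicate 1 (adjusted p 0.0618 to 0.0712), Spint2 without AC9 replicate 1 or 3 (0.0612 and 0.0536), and Epcam without AC9 replicate 1 or 2 or any VECTOR replicate (0.0501 to 0.0983). With a prior that follows intensity, 3 targets were higher and 6 lower.

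Of 25 measured genes of the epidermal barrier, 3 rose, 3 fell and 19 were not called, a called share of 24.0% beside 17.6% of all genes, with a median of 0.02. Sprr1a, a cornified envelope precursor induced by stress, read 6.83, 6.56 and 6.83 in AC9, against 5.41, 5.19 and 5.34 in VECTOR, where it was under the bound, and rose at least 1.64-fold (adjusted p 5.88e-05). The mucosal keratins Krt13 and Krt4 were at least 1.21-fold and 1.09-fold lower (adjusted p 0.00399 and 0.00344), and Ppl, the envelope protein periplakin, at least 1.26-fold lower (0.00626). All 3 were under the bound on every AC9 array. Krt4 was also under it on VECTOR replicate 3 (5.80), a background reading that its lower limit takes as read. Ivl, Lor and 10 others of the list were under the bound on all 6 arrays.

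Of 19 other epithelial and lung transcription factors measured, 4 rose and 6 fell (52.6%, beside 17.6% of all genes), with a median of 0.02. At an adjusted p of 0.01, 5 were called. This list was chosen with earlier results of these data known, so nothing is read from its share. Cebpd and Cebpa, leucine zipper factors that act in lung epithelial differentiation, fell by 1.70 (SE 0.09, adjusted p 1.2e-05) and by 1.40 (SE 0.12, adjusted p 0.000129). Cebpd read 8.05, 8.11 and 7.99 in AC9, against 9.68, 9.84 and 9.75 in VECTOR, and Cebpa read 7.50, 7.66 and 7.45 in AC9, against 9.13, 8.97 and 8.70 in VECTOR. Neither gene's groups overlapped. Hnf4a fell by 0.65 (adjusted p 0.00202), and Sox9, a factor of distal lung progenitors, rose by 0.88 (adjusted p 0.00036).

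Among 6 EMT repressors, 1 was higher and 0 lower by limma, a called share of 16.7% beside 17.6% of all genes. At an unadjusted p under 0.05 by limma, 2 were higher and 0 lower. The median of the list was 0.14, beside 0.02 for all genes. The called member was Zeb1. It read 9.57, 9.63 and 9.63 in AC9, against 8.42, 8.42 and 8.58 in VECTOR, a rise of 1.14 or 2.20-fold (SE 0.09, adjusted p 6.95e-05). Grhl3 and Zeb1 therefore differed between the same arrays in opposite directions. Ovol1 and Ovol2, epithelial factors known to repress Zeb1, were not called (differences 0.04 and -0.03). Ovol1 was under the bound on all arrays and Ovol2 above it on only 1 AC9 and 2 VECTOR arrays. Both genes thus read near background, and both were named after their values were seen. Whether the Zeb1 and Grhl3 differences are connected was not tested. Among 9 milk genes, the group Elf5 is known for, Csn3 rose at least 2.92-fold (limma adjusted p 2.22e-06), with Elf5 under the bound throughout. By limma 0 of the others were called, also at an unadjusted p under 0.05. The called share of the 9 was 11.1%, beside 17.6% of all genes. However, 6 of the 9 were under the bound on all arrays and only 2 above it on all, so most of these readings are background. Of 14 planar polarity genes, a pathway with which Grhl3 interacts genetically in mouse, Celsr1 rose by 0.61 (SE 0.10, adjusted p 0.0027) and 0 fell by limma. The called share was 7.14%, beside 17.6% of all genes, and the median was 0.07, beside 0.02 for all genes. At an unadjusted p under 0.05 by limma, 3 were higher and 0 lower.

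**Figure D5:**
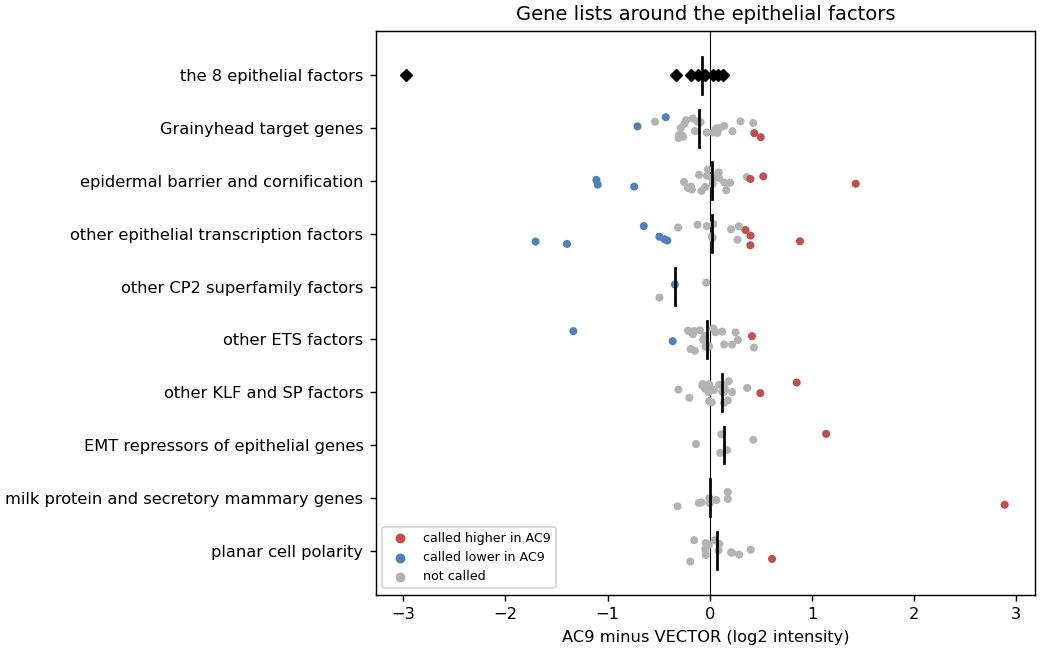
Difference AC9 minus VECTOR in log2 intensity for every measured gene of the 9 lists and, as black diamonds at the top, the readings of the 8 factors; red points were called higher, blue points called lower and grey points not called, and black bars are medians. Grhl3 at -2.97 lies further left than any gene of the lists, of which Cebpd at -1.70 is the lowest.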

How the data were processed

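Per the labels' protocols, total RNA of 6 samples was hybridised to Affymetrix Clariom S arrays. The deposited values are log2 intensities per probe set, made by the authors with RMA per the submitters' processing notes; the sources used here do not give the software, its version, the summary level or a genome build. All 6 columns matched a sample. Symbols came from GEO's platform annotation, and 19505 of 19505 matched RefSeq (GRCm38.p6) by gene number with 0 changed. For genes with several probe sets (55), the one with the highest mean was taken.

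The comparison of AC9 with VECTOR used limma 3.58.1 under R 4.3.3 (two-sided, eBayes with a constant prior after lmFit) across all genes, with Benjamini-Hochberg adjustment and a threshold of 0.05. The fit was tested on simulated data. SEs and intervals are limma's. The number of arrays limits the precision.

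The members and the lists were chosen with earlier results of these data known. Named were the members, Adcy9, up to 4 called genes per list with the largest change, and the 5 genes closest to Grhl3. A few others are said to have been picked later. Listed genes and markers without a row here were not analysed. Alternatives were an intensity-trended robust prior, quantile normalization, median centring, a filter on dim genes, the mean of probe sets, weights per array, a block for the replicate number, a threshold of 0.01 and each array left out. Same-numbered samples were not taken as pairs: the correlations of their deviations from the group means were 0.00846, 0.0814 and 0.00764, and the labels name no shared batch.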

Additional observations from a re-analysis of the deposited data

Results flagged for a closer look

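Of 23 probe sets designed to read background, 19 read lower in AC9 than in VECTOR without overlap between the groups and 0 read higher, a signal in data outside the gene comparison. The differences reached 0.498 on the log2 scale. Their part in the level of Grhl3 was not tested beyond this size, beside which Grhl3 differed by -2.97.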

How the results depend on the processing

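The difference of Grhl3, on which the set was chosen, lay between -3.06 and -2.87 under the 13 alternatives. All 102 member values moved by less than their residual SD, but most could not have done otherwise. With 3 arrays per group, leaving 1 out cannot move a difference that far. The trended prior, the filter on dim genes and, for these members, the mean of probe sets cannot change a difference at all. With 1 array left out Grhl2 moved to -0.16 (without VECTOR replicate 2). Grhl1 moved to -0.05 (without AC9 replicate 3) and Klf5 to 0.02 (without VECTOR replicate 1), both with a change of sign. The background reading of Elf5 changed sign too (-0.07 without AC9 replicate 3 and -0.13 without VECTOR replicate 3). The replicate block cannot change a difference in this balanced design, so Grhl3 stayed at -2.97 by construction. Of 350 values of the 27 other named genes, 315 kept their direction and side of the threshold, 35 kept the direction and lost the call and 0 reversed. For the counts below, the cause of a change was not tested, except that a threshold of 0.01 is stricter and that leaving out dim genes or arrays reduces what is tested. The number of genes called, 3424, was 2174 to 3025 with 1 array left out (lowest without AC9 replicate 1), 1670 at 0.01, 4674 with the trended prior and 4307 without dim genes. With each array centred on its median, 1861 were higher and 1650 lower, against 1612 and 1812 as reported. Grainyhead targets, 4 in the report, numbered 9 with the trended prior, 8 without dim genes, 1 at 0.01 and 1 to 6 with 1 array left out. Other epithelial factors, 10, numbered 5 at 0.01 and 7 to 9 with 1 array left out. CP2 factors, 1, numbered 2 with the trended prior and without dim genes, 0 with median centring, with the replicate block and at 0.01, and 0 to 1 with 1 array left out. ETS factors, 3, numbered 6 with the trended prior, 5 without dim genes, 1 at 0.01 and 1 to 2 with 1 array left out. KLF and SP factors, 2, numbered 4 with the trended prior, 1 with repeated quantile normalization and at 0.01, and 1 to 2 with 1 array left out. EMT repressors, 1, numbered 2 with the trended prior, without dim genes, with array weights and with the replicate block, and 1 to 2 with 1 array left out. Planar polarity genes, 1, numbered 2 with the trended prior, repeated quantile normalization, median centring, without dim genes and with the replicate block, and 1 to 2 with 1 array left out. Under the replicate block Erf and Tfcp2 lost their calls (adjusted p 0.0708 and 0.0676). Signal near background limits Grhl2, Elf5 and Ehf.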
